A study of Homo sapiens with 12 samples.

Results

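Transcript levels of 10 genes that report on and restrain MAP kinase signalling were followed in SNU449 hepatocellular carcinoma cells with and without Axl, as control and as Regorafenib (Rego)-resistant populations. The genes are DUSP4, DUSP5, DUSP6, SPRY2, SPRY4, SPRED1, SPRED2, ETV4, ETV5 and FOSL1. They were chosen by name as MAP kinase output and feedback genes, with earlier results of these data known. All 10 were found among the 15601 genes measured. SNU449 is an established human liver cancer line. In SNU449-Axl- cells, derived from it, the receptor tyrosine kinase Axl was knocked out. The 4 groups were as follows. SNU449 control and SNU449-Axl- control cells are the naive populations of both genotypes. SNU449 Rego and SNU449-Axl- Rego cells are populations selected with Rego, an inhibitor of several kinases, first at 50% of the IC50, then in steps of 50% of the IC50, up to 2 times the IC50. Per the labels, Rego was given again after each splitting, so effects of the drug itself and of acquired resistance cannot be told apart. Whether the knockout line is 1 clone is not given in the sources used here. Each population was sequenced in 3 libraries that are described as technical triplicates. Every test below therefore measures the spread between libraries, and an effect of Rego selection or of Axl cannot be told apart from a difference between 2 populations.

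In the MAP kinase pathway, an active receptor tyrosine kinase recruits exchange factors to RAS, and RAS starts the chain of RAF, MEK and ERK kinases. ERK phosphorylates transcription factors, and among the genes it induces are its own inhibitors. Sprouty and SPRED proteins restrain signalling at the level of RAS and RAF, and dual-specificity phosphatases remove the activating phosphates of MAP kinases. The ETS factors ETV4 and ETV5 and the AP-1 subunit FOSL1 are transcription factors that commonly rise with ERK activity. The levels given here are of transcripts, and the phosphorylation of ERK was not analysed here.

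The AXL transcript separated the genotypes. Its library values, on a linear scale explained below, were 727, 941 and 715 in SNU449 control cells and 1237, 815 and 1271 in SNU449 Rego cells. In SNU449-Axl- cells they were 35, 53 and 33 in control and 50, 38 and 52 in Rego-resistant cells. The log2 difference of AXL between SNU449-Axl- and SNU449 control cells was -4.29 ± 0.24 (SE, n = 3 libraries per group) (limma, Benjamini-Hochberg adjusted p = 2.16e-09). Of the 6 hepatocyte markers examined, only AFP and APOA1 were listed, with values no higher than 39 in any library. All 4 mesenchymal-like markers (VIM, FN1, CDH2 and ZEB1) were listed, the epithelial markers CDH1 and EPCAM were not, the leukocyte marker PTPRC had values no higher than 31, and the endothelial marker PECAM1 was not listed. FN1 had mean log2 levels of 11.10 in SNU449 control, 8.86 in SNU449 Rego, 8.85 in SNU449-Axl- control and 11.32 in SNU449-Axl- Rego cells, and its part in the results below was not tested.

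A library value is the authors' variance-stabilised and batch-corrected level of a gene, returned to a linear scale and rounded. On this scale a gene with almost no reads does not reach 0. The 48 genes with a mean normalized count under 1 had a median log2 level of 4.61, the 373 genes with a mean normalized count of 9 to 11 one of 5.23, and the 652 genes at 90 to 110 one of 6.89. Log2 differences therefore understate the change of weakly expressed genes. SPRY4, with an authors' mean normalized count of 10.6 over the 12 libraries, lay near this floor. ETV4 and SPRED2, at 35.6 and 41.0, were also affected, while DUSP4 and FOSL1 had the highest counts at 199 and 237.

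The mean normalized count of each group was also solved from the authors' means in 6 tables, each of which averages 2 groups. For the 10 genes the solution missed no table's mean by more than 6.53%. The solved counts of SPRY2 were 50.2 in SNU449 control, 200.1 in SNU449 Rego, 131 in SNU449-Axl- control and 154 in SNU449-Axl- Rego cells. FOSL1 had its highest count, 348, in SNU449 control cells. DUSP5 was lowest, at 31.0, in SNU449 Rego cells and highest, at 187, in SNU449-Axl- Rego cells. ETV5 reached 122 in SNU449-Axl- control cells and lay between 37.8 and 56.2 in the other groups. As these are means without replicates, they carry no error or test, and they serve to show the depth behind each gene. The ratio of solved counts, SNU449-Axl- control over SNU449 control cells, was 3.22 for ETV5 and 3.09 for DUSP6. The folds from the library values were smaller, at 2.00 and 1.85. For FOSL1 the ratio was 0.67, against a fold of 0.60, so the library values did not understate every change.

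**Figure D1:**
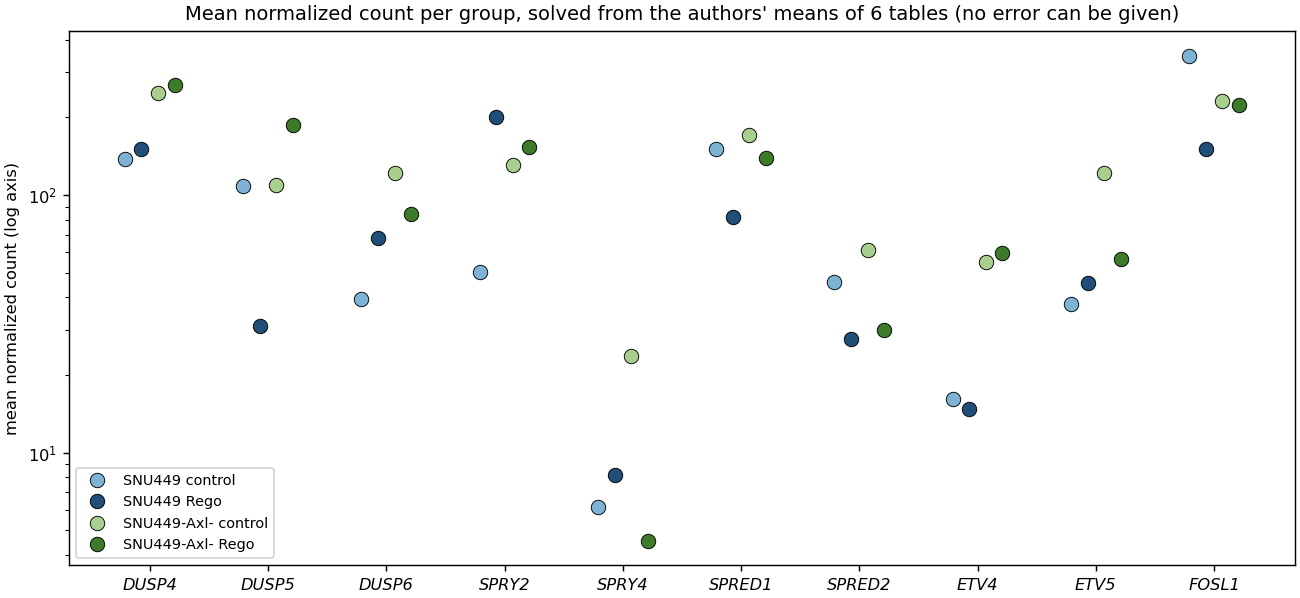
Mean normalized count (log axis) of the 10 genes in each of the 4 groups, solved from the authors' means, with 1 point per group. SPRY2 spans 50.2 to 200.1, DUSP5 spans 31.0 to 187, and SPRY4 is the weakest gene at 4.55 to 23.8.

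Of the 10 genes, 5 (DUSP6, SPRED1, SPRED2, SPRY2 and SPRY4) were matched to a promoter in the RefSeq annotation of GRCh38.p14. The start used lay 2208 bases from the start of the measured gene for SPRY4, 38 for SPRED2 and 0 for DUSP6, SPRED1 and SPRY2. The 250 bases upstream of the start are shown for SPRY2, which of the 10 genes had the largest log2 difference of library values. They are also shown for DUSP6, which of these 5 genes held the most ETS cores. Both lie on the minus strand, SPRY2 upstream bases at chr13:80341127-80341376 and DUSP6 upstream bases at chr12:89352502-89352751, and are printed 5′ to 3′ in the direction of transcription. Capitals mark the core bound by ETS factors such as ETV4 and ETV5, read on both strands as GGAA or TTCC.
SPRY2: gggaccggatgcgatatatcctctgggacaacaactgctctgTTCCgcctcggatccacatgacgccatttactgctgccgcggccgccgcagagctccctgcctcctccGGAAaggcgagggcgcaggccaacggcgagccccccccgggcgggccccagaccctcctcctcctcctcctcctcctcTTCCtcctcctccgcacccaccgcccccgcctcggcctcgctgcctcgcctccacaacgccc
DUSP6: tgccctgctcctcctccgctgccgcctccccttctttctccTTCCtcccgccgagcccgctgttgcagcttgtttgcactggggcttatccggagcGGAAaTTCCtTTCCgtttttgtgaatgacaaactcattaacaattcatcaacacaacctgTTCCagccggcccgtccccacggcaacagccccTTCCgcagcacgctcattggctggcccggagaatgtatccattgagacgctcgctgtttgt
The core occurred 3 times in SPRY2 and 6 times in DUSP6. Over the 35116 promoters of the table, 92.7% held it at least once with a median of 3 matches, so its presence does not set these genes apart. The AP-1 site TGAGTCA or its reverse TGACTCA, which 4.20% of promoters held, and the longer ETS site CCGGAAGT or its reverse ACTTCCGG, which 3.42% held and which contains the core, were in none of the 5 windows.

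The 4 comparisons between populations that differ in Rego or Axl, and the interaction, were fitted for all 15601 genes in 1 model (limma on log2 library values, with the replicate number as a block, Benjamini-Hochberg adjusted p under 0.05). Rego-resistant against control SNU449 cells gave a call for 2 of the 10 genes, SPRY2 higher and FOSL1 lower, against 7.81% of all genes. Rego-resistant against control SNU449-Axl- cells gave 1 call, ETV5 lower, against 4.35% of all genes called and 1.81% called lower. Control SNU449-Axl- against control SNU449 cells gave 3 calls, ETV5 and SPRY2 higher and FOSL1 lower, against 7.45%. Resistant SNU449-Axl- against resistant SNU449 cells gave 1 call, DUSP5 higher, against 4.37% called and 2.44% called higher. The interaction, which is the Rego effect in SNU449 minus that in SNU449-Axl- cells, gave 2 calls, SPRY2 and ETV5, both positive, against 5.87% called and 2.95% called positive. Without the replicate block the 5 comparisons gave 2, 3, 3, 1 and 4 calls among the 10 genes, against 13.9%, 9.95%, 14%, 9.63% and 11.7% of all genes. These comparisons share libraries with each other, so their results are given side by side and not as independent observations.

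**Figure D2:**
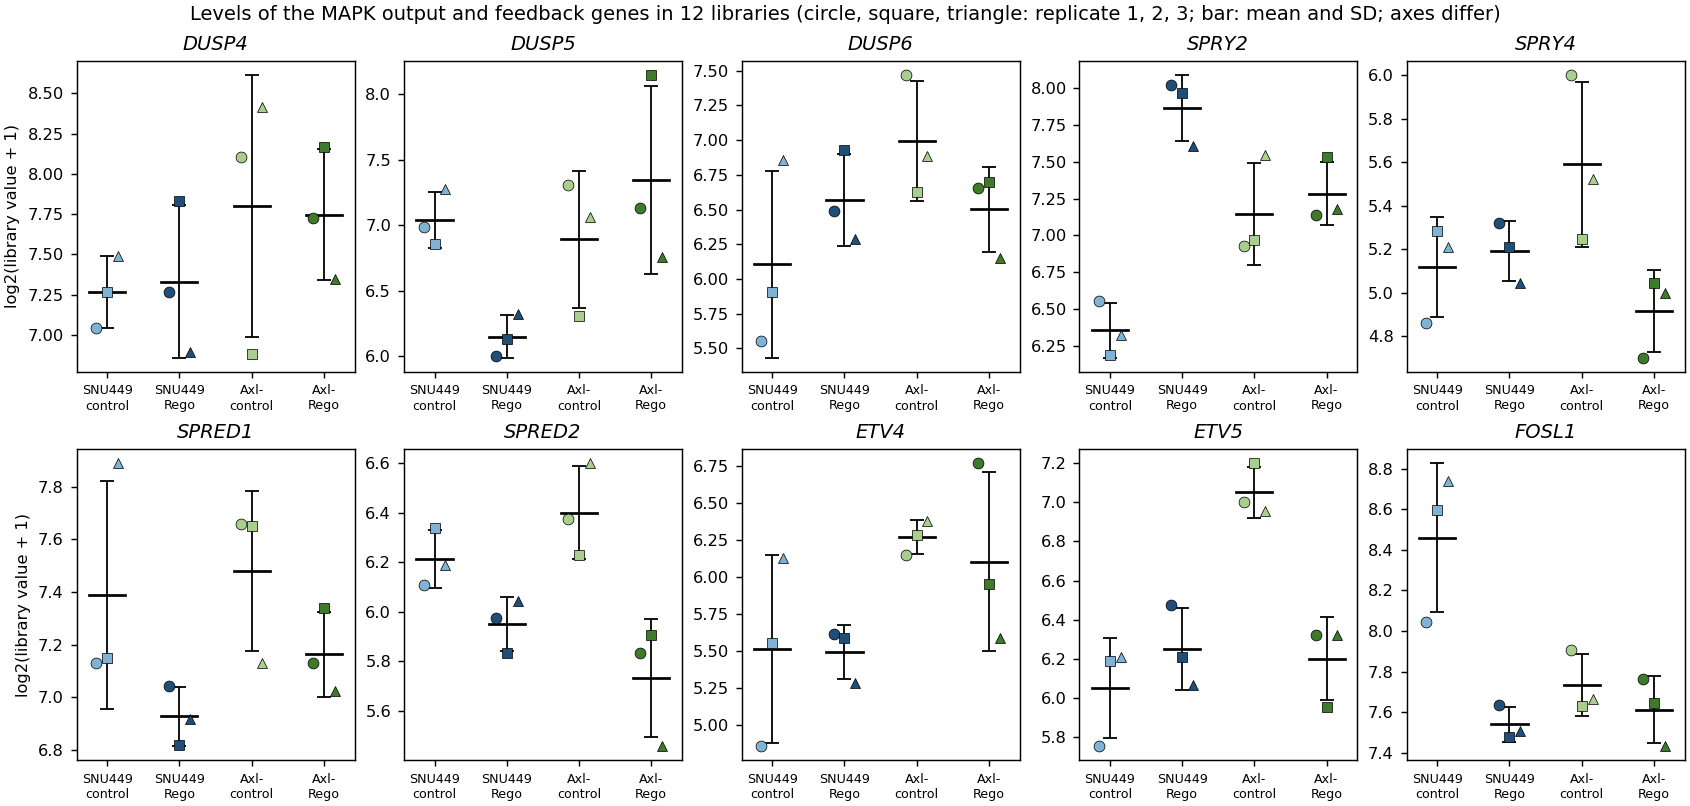
Log2(library value + 1) of each gene in the 12 libraries, grouped by population, with the mean and SD over 3 libraries. SPRY2 is highest in the 3 SNU449 Rego libraries, ETV5 in the 3 SNU449-Axl- control libraries and FOSL1 in the 3 SNU449 control libraries, without overlap with the next group. The share of all genes with a highest group set apart in this way was not counted.

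Separation of libraries, without a test, was counted next. Library values of control and Rego-resistant SNU449 cells did not overlap for 5 of the 10 genes, against 27.9% of all genes. In SNU449-Axl- cells this held for 3 of 10, against 29.1%. Between the genotypes it held for 4 of 10 among control cells, against 27.9%, and for 2 of 10 among resistant cells, against 28%. The median log2 difference over the 10 genes was 0.50 for Axl loss in control cells, where the median of all genes was 0.00, and -0.24 for Rego in SNU449-Axl- cells, where that of all genes was 0.01. It was 0.02 for Rego in SNU449 and 0.01 for Axl loss in resistant cells.

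**Figure D3:**
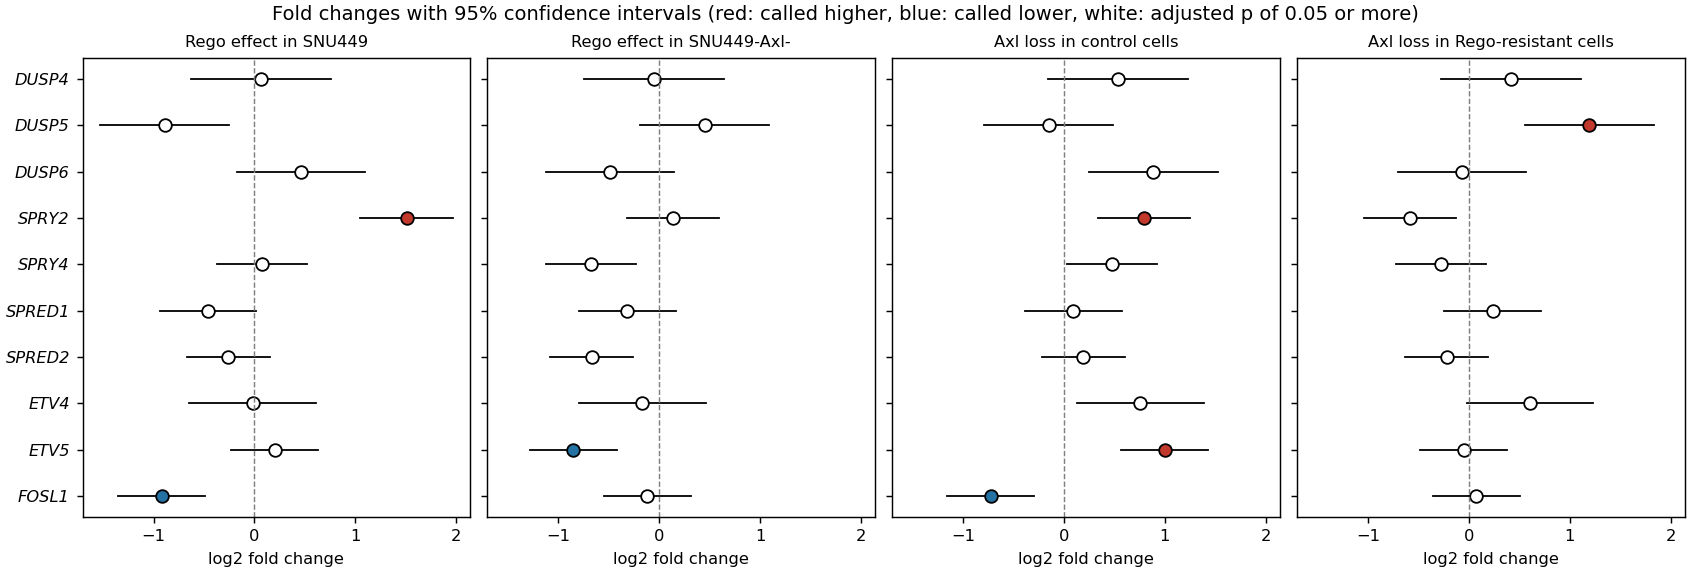
Log2 fold change of each gene in the 4 comparisons, with 95% confidence intervals. SPRY2 rose by 1.51 with Rego in SNU449 cells and by 0.79 with Axl loss in control cells, and FOSL1 differed by -0.92 and -0.73 in the same comparisons.

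SPRY2 encodes Sprouty2, an inhibitor of receptor tyrosine kinase signalling (ENSG00000136158.12, chr13:80335976-80341126). Its library values were 93, 72 and 79 in SNU449 control and 258, 249 and 194 in SNU449 Rego cells. Every resistant library thus lay above every control library. Control libraries averaged 6.36 ± 0.18 (SD, n = 3) on the log2 scale, and resistant libraries averaged 7.86 ± 0.22 (SD, n = 3). The difference was 1.51 ± 0.22 (SE), with a 95% confidence interval of 1.05 to 1.96 and a fold of 2.84 (limma, Benjamini-Hochberg adjusted p = 0.000239). On the solved mean normalized counts, which have no floor, the ratio was 3.99. This call was kept when any of the 12 libraries was left out, with differences of 1.40 to 1.68.

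In SNU449-Axl- cells, SPRY2 started from a higher level and differed less between the populations. Its values were 121, 124 and 186 in control and 140, 184 and 144 in Rego-resistant cells, which overlap. The difference was 0.14, with a 95% confidence interval of -0.32 to 0.59, so that a rise of the size seen in SNU449 cells lies outside the interval. The interaction was 1.37 ± 0.31 (SE, 95% confidence interval 0.73 to 2.02, limma with Benjamini-Hochberg adjusted p = 0.0117). It was called with any 1 library left out, at 1.11 to 1.54. Control SNU449-Axl- cells were above control SNU449 cells by 0.79 ± 0.22 (SE, limma with Benjamini-Hochberg adjusted p = 0.0325), without overlap of libraries. That call was lost without SNU449 control replicate 2 (0.68) or 3 (0.77) and without SNU449-Axl- control replicate 2 (0.91) or 3 (0.53), and in the table of this pair of groups alone (adjusted p = 0.0794). Among resistant cells, the order of the genotypes was the opposite, with SPRY2 at -0.58 ± 0.22 (SE) in SNU449-Axl- relative to SNU449 cells and no overlap, which did not pass the correction (limma, Benjamini-Hochberg adjusted p = 0.150).

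SPRY4 encodes a further Sprouty inhibitor and was the weakest of the 10 genes. Its values were 28, 38 and 36 in SNU449 control, 39, 36 and 32 in SNU449 Rego, 63, 37 and 45 in SNU449-Axl- control and 25, 32 and 31 in SNU449-Axl- Rego cells. The last pair of groups did not overlap. The difference with Rego in SNU449-Axl- cells, -0.68 ± 0.21 (SE), missed the threshold with the replicate block (limma, Benjamini-Hochberg adjusted p = 0.0816) and passed without it (adjusted p = 0.0315). The solved mean normalized counts of SPRY4 were 23.8 in SNU449-Axl- control and 4.55 in SNU449-Axl- Rego cells, so the lower level rests on few reads. In SNU449 cells the difference with Rego was 0.07, with a 95% confidence interval of -0.37 to 0.52.

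The SPRED proteins bind neurofibromin and bring it to RAS at the membrane. SPRED1 gave no call in any comparison. Its values were 139, 141 and 236 in SNU449 control, 131, 112 and 120 in SNU449 Rego, 201, 200 and 139 in SNU449-Axl- control and 139, 161 and 129 in SNU449-Axl- Rego cells. The SNU449 groups did not overlap, with a difference of -0.46 ± 0.23 (SE, limma with Benjamini-Hochberg adjusted p = 0.258), and replicate 3 of the control cells stood above the other libraries. SPRED2 had values of 68, 80 and 72 in SNU449 control and 62, 56 and 65 in SNU449 Rego cells. In SNU449-Axl- cells they were 82, 74 and 96 in control and 56, 59 and 43 in resistant cells. In both genotypes the resistant libraries lay below the control libraries without overlap. The difference of SPRED2 was -0.26 ± 0.20 (SE) in SNU449 cells and -0.67 ± 0.20 (SE) in SNU449-Axl- cells, where the adjusted p was 0.0605 with the replicate block and 0.0147 without it (limma, Benjamini-Hochberg). These SPRED2 effects were not shown to differ, as the interaction was 0.41 with a 95% confidence interval of -0.18 to 0.99.

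DUSP5, a nuclear phosphatase of ERK, showed its lowest level in SNU449 Rego cells (ENSG00000138166.6, chr10:110497907-110511533). Its values were 126, 115 and 154 in SNU449 control and 63, 69 and 79 in SNU449 Rego cells. The groups did not overlap, and the difference of -0.89 ± 0.30 (SE, 95% confidence interval -1.53 to -0.25) did not pass the correction (limma, Benjamini-Hochberg adjusted p = 0.0857). It passed without SNU449-Axl- Rego replicate 2 (adjusted p = 0.0210) and in the table of this pair of groups alone (adjusted p = 0.0370). In SNU449-Axl- cells the values were 157, 78 and 133 in control and 139, 282 and 107 in resistant cells, and a single library, resistant replicate 2, stood above all others. The difference there was 0.45 ± 0.30 (SE), with a 95% confidence interval of -0.19 to 1.09, and it was -0.081 without that library. The interaction was -1.34 ± 0.43 (SE) and missed the threshold with the replicate block (limma, Benjamini-Hochberg adjusted p = 0.0763), while it passed without the block (adjusted p = 0.0475) and without SNU449-Axl- control replicate 1 (-1.62) or SNU449-Axl- Rego replicate 3 (-1.73).

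Among resistant cells, DUSP5 was higher in SNU449-Axl- than in SNU449 cells by 1.19 ± 0.30 (SE), with a 95% confidence interval of 0.55 to 1.83, a fold of 2.29 and no overlap (limma, Benjamini-Hochberg adjusted p = 0.0313). On the solved mean normalized counts the ratio was 6.03, where SNU449-Axl- Rego replicate 2, the highest library, enters the mean. The call was lost when SNU449 Rego replicate 1 (1.09), 2 (1.18) or 3 (1.31) or SNU449-Axl- Rego replicate 1 (1.33) or 2 (0.66) was left out, and kept without SNU449-Axl- Rego replicate 3. It was also lost when a mean value of at least 100 was required (adjusted p = 0.0520). Control cells of the genotypes differed by -0.15, with a 95% confidence interval of -0.79 to 0.49.

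DUSP6, the cytoplasmic phosphatase of ERK, was variable within the groups. Its values were 46, 59 and 115 in SNU449 control, 89, 121 and 77 in SNU449 Rego, 176, 98 and 117 in SNU449-Axl- control and 100, 103 and 70 in SNU449-Axl- Rego cells. All neighbouring groups in this order of levels overlapped. The largest difference, 0.89 ± 0.30 (SE) for Axl loss in control cells, did not pass the correction (limma, Benjamini-Hochberg adjusted p = 0.0849). With the libraries centred on the spike-in RNAs it was 1.09 and passed (adjusted p = 0.0227). With all libraries, DUSP6 differed by 0.46 for Rego in SNU449 cells (limma, Benjamini-Hochberg adjusted p = 0.41) and by 0.95 for the interaction (adjusted p = 0.222). Without SNU449 control replicate 3, the highest library of its group, DUSP6 passed for Axl loss in control cells (1.39, adjusted p = 0.0034). It then also passed for Rego in SNU449 cells (0.96, adjusted p = 0.0355) and for the interaction (1.45, adjusted p = 0.0169). Each was called in only 1 of the 12 fits with 1 library left out. The differences ranged over 0.52 to 1.39, 0.09 to 0.96 and 0.59 to 1.45 in this order. DUSP4, a nuclear phosphatase of ERK and other MAP kinases, gave no call with all libraries. It had values of 131, 153 and 179 in SNU449 control, 153, 227 and 118 in SNU449 Rego, 274, 117 and 341 in SNU449-Axl- control and 211, 286 and 162 in SNU449-Axl- Rego cells. DUSP4 spread from 117 to 341 within the SNU449-Axl- control group alone. Its difference for Axl loss in control cells, 0.53 ± 0.33 (SE, limma with Benjamini-Hochberg adjusted p = 0.378), was 1.15 and passed without SNU449-Axl- control replicate 2 (adjusted p = 0.0225). That was the only call in the 12 fits with 1 library left out, over a range of 0.12 to 1.15. The Rego differences of DUSP4 were 0.06 in SNU449 (95% confidence interval -0.63 to 0.76) and -0.05 in SNU449-Axl- cells (95% confidence interval -0.75 to 0.64).

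ETV5, an ETS transcription factor of the PEA3 group, was highest in SNU449-Axl- control cells (ENSG00000244405.8, chr3:186046314-186110318). Its values were 53, 72 and 73 in SNU449 control, 88, 73 and 66 in SNU449 Rego, 127, 146 and 123 in SNU449-Axl- control and 79, 61 and 79 in SNU449-Axl- Rego cells. The 3 SNU449-Axl- control libraries lay above the other 9, which overlapped with each other. Between the control groups alone, 27.9% of all genes did not overlap, and the share set apart from all other libraries was not counted. Among control cells, ETV5 was higher in SNU449-Axl- by 1.0 ± 0.21 (SE, 95% confidence interval 0.57 to 1.43, fold 2.00, limma with Benjamini-Hochberg adjusted p = 0.0053). On the solved mean normalized counts the ratio was 3.22. The call was lost without SNU449-Axl- control replicate 2 (0.90, adjusted p = 0.0517) and kept without any other library.

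With Rego, ETV5 fell by 0.85 ± 0.21 (SE, 95% confidence interval -1.28 to -0.42) in SNU449-Axl- cells (limma, Benjamini-Hochberg adjusted p = 0.0236). In SNU449 cells the difference was 0.20, with a 95% confidence interval of -0.23 to 0.63. The interaction was 1.05 ± 0.29 (SE, limma with Benjamini-Hochberg adjusted p = 0.0385). Both calls were fragile. The fall in SNU449-Axl- cells was not called without control replicate 1 (-0.89) or 2 (-0.75) or resistant replicate 1 (-0.93), 2 (-0.69) or 3 (-0.93). The interaction was called in only 3 of the 12 fits with 1 library left out, at 0.85 to 1.17. When libraries were centred on the spike-in RNAs, ETV5 passed in neither (adjusted p = 0.0953 and 0.119). In resistant cells the genotypes differed by -0.05, with a 95% confidence interval of -0.48 to 0.38.

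ETV4, the close relative of ETV5, gave no call with all libraries. Its values were 28, 46 and 69 in SNU449 control, 48, 47 and 38 in SNU449 Rego, 70, 77 and 82 in SNU449-Axl- control and 108, 61 and 47 in SNU449-Axl- Rego cells. The control groups did not overlap, though only by the step from 69 to 70. The difference for Axl loss was 0.76 ± 0.30 (SE, limma with Benjamini-Hochberg adjusted p = 0.143) in control cells, and 0.61 ± 0.30 (SE, adjusted p = 0.293) in resistant cells. The difference in control cells was 0.96 and passed with spike-in centring (adjusted p = 0.0426), and was 1.17 and passed without SNU449 control replicate 3 (adjusted p = 0.0202), over a range of 0.32 to 1.17 with 1 library left out. The Rego differences of ETV4 were -0.02 in SNU449 and -0.17 in SNU449-Axl- cells.

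**Figure D4:**
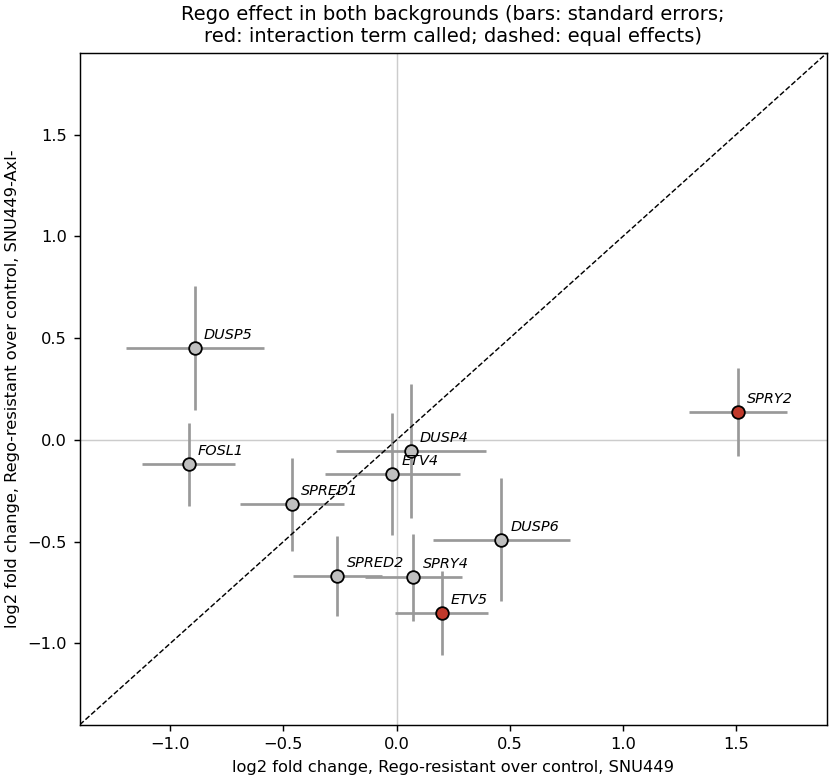
Log2 fold change with Rego in SNU449 (x axis) against that in SNU449-Axl- cells (y axis) for the 10 genes, with standard errors. SPRY2 (1.51 and 0.14) and ETV5 (0.20 and -0.85) are the genes whose interaction was called, and the axes share no libraries.

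FOSL1, which encodes the AP-1 subunit FRA1, was highest in SNU449 control cells (ENSG00000175592.9, chr11:65892049-65900573). Its values were 263, 386 and 426 in SNU449 control and 198, 177 and 181 in SNU449 Rego cells. They were 239, 197 and 202 in SNU449-Axl- control and 216, 199 and 172 in SNU449-Axl- Rego cells. The 3 SNU449 control libraries lay above the other 9, and the share of all genes set apart in this way was not counted. With Rego, FOSL1 fell in SNU449 cells by 0.92 ± 0.21 (SE, 95% confidence interval -1.35 to -0.49, fold 0.53, limma with Benjamini-Hochberg adjusted p = 0.00858). The call was lost without SNU449 control replicate 2 (-0.83) or 3 (-0.73) and narrowly in the table of this pair of groups alone (adjusted p = 0.0513).

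In control cells, FOSL1 was lower in SNU449-Axl- than in SNU449 cells, with a difference of -0.73 ± 0.21 (SE, 95% confidence interval -1.16 to -0.29, limma with Benjamini-Hochberg adjusted p = 0.0378). This call was lost without SNU449 control replicate 2 (-0.63) or 3 (-0.54), SNU449-Axl- control replicate 2 (-0.66) or 3 (-0.68), or SNU449-Axl- Rego replicate 1 (-0.73), with spike-in centring (adjusted p = 0.166), and in the table of this pair of groups alone (adjusted p = 0.117). Both comparisons use the same SNU449 control libraries. In SNU449-Axl- cells the Rego difference of FOSL1 was -0.12, with a 95% confidence interval of -0.55 to 0.31, and among resistant cells the genotypes differed by 0.07, with a 95% confidence interval of -0.36 to 0.51. The interaction of FOSL1, -0.80 ± 0.29 (SE), missed the threshold with the replicate block (limma, Benjamini-Hochberg adjusted p = 0.122) and passed without it (adjusted p = 0.0458), as it did without SNU449 control replicate 1 (-1.08, adjusted p = 0.0284).

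Other genes of the pathway were examined in 8 lists of 56 genes (the MAP kinase cascade, adaptors and exchange factors, RAS and RAF restraining proteins, and further phosphatases, Sprouty and SPRED proteins, ETS factors, AP-1 subunits and ERK-responsive transcripts), of which 55 were measured. Calls of single genes in these lists were not checked by leaving out libraries, in fits of group pairs alone or with spike-in centring. Axl loss in control cells gave 5 calls among the 55, all higher, against 7.45% of all genes called and 4.03% called higher. The median difference over the 55 genes was 0.16. The ETS factor ETS2 was higher by 1.84 ± 0.40 (SE, limma with Benjamini-Hochberg adjusted p = 0.00851). JUNB, an AP-1 subunit, was higher by 1.44 ± 0.28 (SE, adjusted p = 0.00408), and CCND1, which encodes cyclin D1, by 1.30 ± 0.36 (SE, adjusted p = 0.0328). DUSP7, a cytoplasmic phosphatase of ERK (0.97), and the immediate early gene IER2 (0.73) were the others and are named after their values were seen. None of the 10 genes of the MAP kinase cascade was called in this comparison, while 1 was higher at an unadjusted p under 0.05 and 1 was called higher without the replicate block (limma).

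Rego in SNU449 cells gave 4 calls among the 55 genes, against 7.81% of all genes. CCND1 rose by 1.24 ± 0.36 (SE, limma with Benjamini-Hochberg adjusted p = 0.0391) and MAP2K2, which encodes the kinase MEK2, by 0.80 ± 0.19 (SE, adjusted p = 0.0128). EMP1, an epithelial membrane protein, fell by 1.41 ± 0.23 (SE, adjusted p = 0.000599), and the phosphatase gene DUSP1 fell by 0.90 ± 0.27 (SE, adjusted p = 0.0475) with overlapping libraries. The median over the 55 genes was 0.03. Neither the 6 other ETS factors nor the 7 other AP-1 subunits held a call in this comparison, with 0 and 2 of them, respectively, at an unadjusted p under 0.05 and 0 and 1 called without the replicate block (limma).

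Rego in SNU449-Axl- cells gave 3 calls, all lower, against 4.35% of all genes called and 1.81% called lower. They were the kinase gene ARAF (-0.75), the ETS factor ELK1 (-0.88) and DUSP7 (-0.89), with adjusted p of 0.0371, 0.0282 and 0.0373 (limma, Benjamini-Hochberg). The median over the 55 genes was -0.18. Axl loss in resistant cells gave no call in limma, against 4.37% of all genes. At an unadjusted p under 0.05, 6 of the 55 genes were higher and 2 lower, against 1482 and 1353 of the 15601 genes, and without the replicate block 2 were called higher and 1 lower. The interaction was called for MAP2K2 (1.14) and IER2 (0.99), with adjusted p of 0.0160 and 0.0311 (limma, Benjamini-Hochberg). These are 2 of the 55 genes, against 5.87% of all genes called and 2.95% called positive.

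**Figure D5:**
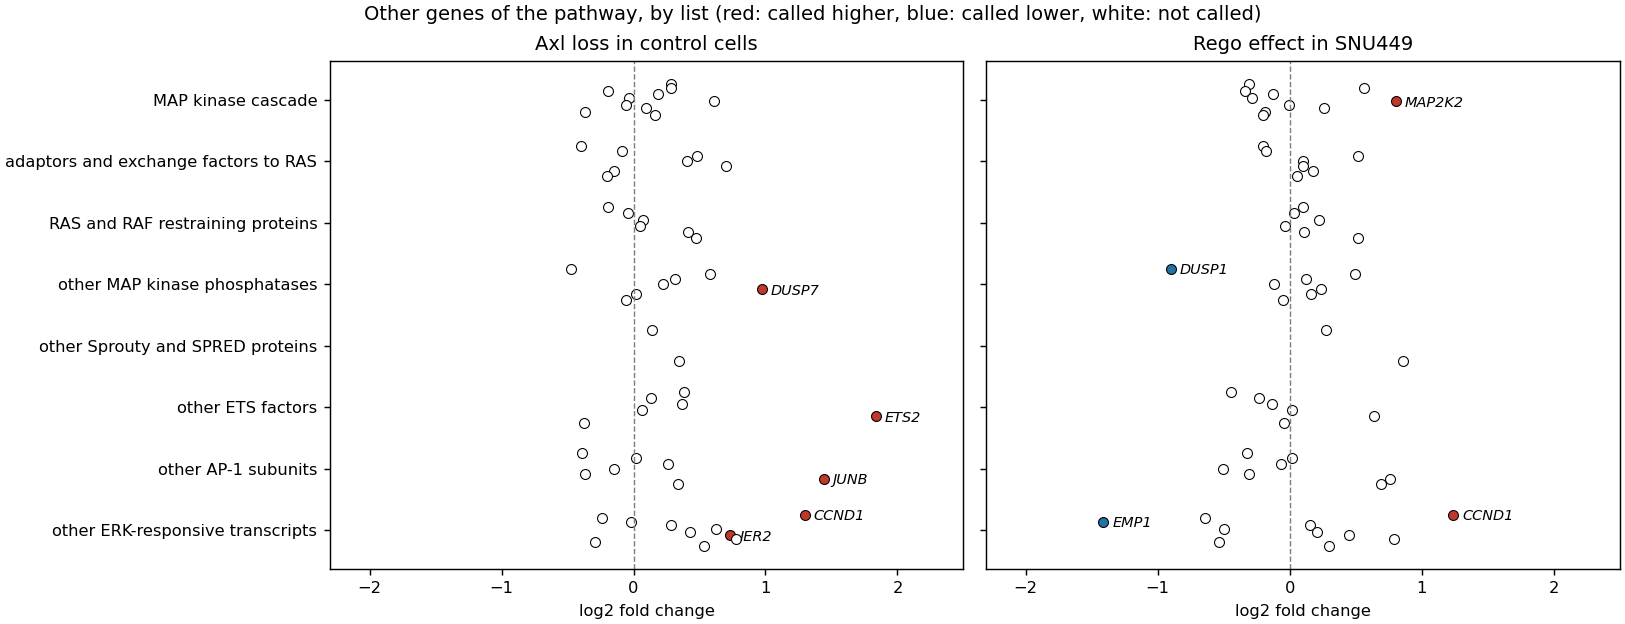
Log2 fold change of the 55 other genes of the pathway for Axl loss in control cells (left) and for Rego in SNU449 cells (right), with 1 point per gene in 8 lists. The 5 genes called for Axl loss all lie to the right of 0, and the 4 called for Rego lie on both sides.

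The spread between libraries and the scale limited these comparisons. Centring each library on its spike-in RNAs raised the median of all genes by 0.05 for Rego in SNU449, 0.14 for Rego in SNU449-Axl-, 0.20 for Axl loss in control cells and 0.29 for Axl loss in resistant cells, and changed that of the interaction by -0.09. The calls over all genes then turned from 381 higher and 301 lower to 1731 higher and 68 lower for Axl loss in resistant cells, from 628 and 535 to 1257 and 231 for Axl loss in control cells, from 396 and 282 to 585 and 110 for Rego in SNU449-Axl-, from 673 and 546 to 612 and 380 for Rego in SNU449 cells, and from 461 and 455 to 265 and 460 for the interaction. Directions above are relative to the gene median. In libraries of whole populations, fewer cells with a transcript and less transcript per cell cannot be told apart.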

How the data were processed

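RNA of the 12 libraries was sequenced from the 3′ ends (QuantSeq). Per the submitters' processing notes and the study's methods, the authors trimmed reads with cutadapt 4.0, aligned them to GRCh38 with STAR 2.5.3a, counted them per gene and used preparation dates in the DESeq2 design. The library values are scores that the authors deposited, whole numbers read here as 2 raised to the variance-stabilised, batch-corrected level. The deposited mean normalized count is a signal averaged by the authors over the libraries of a table. The authors' fold changes and p-values are the results of their comparisons and were not used. Counts and depth per library are unknown, and the mean normalized counts summed to 4159387 to 4916825 per table, so no counting interval is given.

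After 32 spike-in RNAs were left out, log2(value + 1) from the table over 12 libraries entered 1 linear model per gene, with the 4 groups and the replicate number as a block (R 4.3.3, limma 3.58.1, variances moderated with an intensity trend). A mean value of at least 5 was required, which removed 0 genes, and an adjusted p under 0.05 was called. The block was kept because the authors' batch removal follows the replicate number. Deviations of libraries with the same number correlated at -0.48 to -0.09 between groups, which the removal itself produces, and dates are not in the labels. The fit was tested on simulated data. The gene set and lists were chosen with earlier results of these data known. Named by rule were the 10 genes, AXL, the markers, the 3 called list genes with the largest rise and fall per comparison, and the 3 genes most correlated with each of the 10. Alternatives were the fit without block, the tables of group pairs, the other table over all libraries, other scalings, filters and pseudocounts, no trend and leaving out each library.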

Additional observations from a re-analysis of the deposited data

Results flagged for a closer look

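The Rego effect differed between SNU449 and SNU449-Axl- cells, by the interaction term of the fit, for SPRY2 and ETV5. For SPRY2 the interaction was 1.37 (limma, Benjamini-Hochberg adjusted p = 0.0117), with all 3 SNU449 Rego libraries above all 3 SNU449 control libraries. For ETV5 it was 1.05 (limma, Benjamini-Hochberg adjusted p = 0.0385), with all 3 SNU449-Axl- Rego libraries below all 3 SNU449-Axl- control libraries. Such separation with Rego held for 27.9% of all genes in SNU449 and 29.1% in SNU449-Axl- cells. The SPRY2 interaction was called in all 12 fits with 1 library left out, and the ETV5 interaction in 3. With spike-in centring the ETV5 interaction did not pass (limma, Benjamini-Hochberg adjusted p = 0.119).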

How the results depend on the processing

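Without the replicate block, 2175, 1552, 2182, 1503 and 1826 genes were called for Rego in SNU449, Rego in SNU449-Axl-, Axl loss in control cells, Axl loss in resistant cells and the interaction, against 1219, 678, 1163, 682 and 916 with it. Of the 10 genes, 3 were then called for Rego in SNU449-Axl- cells, with SPRY4 and SPRED2 added, and 4 for the interaction, with DUSP5 and FOSL1 added. The other comparisons of the 10 genes kept their calls without the block. In the tables of group pairs, which are fitted with fewer libraries, 603 genes were called for Rego in SNU449, 818 for Rego in SNU449-Axl-, 603 for Axl loss in control cells and 1160 for Axl loss in resistant cells. Axl loss in control cells kept 1 call among the 10 genes there, as SPRY2 (adjusted p = 0.0794) and FOSL1 (0.117) missed it, FOSL1 missed it for Rego in SNU449 (limma, adjusted p = 0.0513), DUSP5 passed it (-0.68, adjusted p = 0.0370), and ETV4 changed sign for Rego in SNU449 (0.0014).

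Spike-in centring left 0 of the 10 genes called for Rego in SNU449-Axl- cells and called 1799 genes for Axl loss in resistant cells. It turned the sign of ETV4 for Rego in SNU449 (0.029), of DUSP4 (0.084) and FOSL1 (0.017) for Rego in SNU449-Axl- cells, of DUSP5 for Axl loss in control cells (0.053), and of DUSP6 (0.23), SPRY4 (0.015), SPRED2 (0.074) and ETV5 (0.24) for Axl loss in resistant cells. None of these was called with or without it. It also brought DUSP5 past the threshold for the interaction (adjusted p = 0.0402). With a mean value of at least 100, 6854 genes and 5 of the 10 were tested, and 641, 411, 683, 353 and 548 genes were called in the same order. The 5 were DUSP4, DUSP5, SPRY2, SPRED1 and FOSL1. Of them, 0 were then called for Rego in SNU449-Axl- cells, 0 for Axl loss in resistant cells (DUSP5, adjusted p = 0.0520) and 1 for the interaction. ETV5 was removed by this filter, so its calls were not examined in this setting. The other table over all libraries, upper-quartile scaling, no filter, no pseudocount or one of 10, and no trend changed no direction or call of the 10 genes in these comparisons.

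Leaving out 1 library gave 1 to 3, 0 to 1, 1 to 3, 0 to 1 and 1 to 3 calls among the 10 genes in the same order, and 740 to 1299, 205 to 891, 540 to 1275, 219 to 826 and 523 to 922 over all genes. The sign turned for the following log2 differences. For Rego in SNU449 they ranged over -0.27 to 0.36 for DUSP4, -0.46 to 0.39 for ETV4 and -0.11 to 0.19 for SPRY4. For Rego in SNU449-Axl- cells they were -0.67 to 0.36 for DUSP4, -0.081 to 0.84 for DUSP5, -0.61 to 0.18 for ETV4 and -0.029 to 0.40 for SPRY2. For Axl loss in control cells they were -0.43 to 0.24 for DUSP5 and -0.083 to 0.42 for SPRED1. For Axl loss in resistant cells they were -0.26 to 0.18 for DUSP6, -0.17 to 0.11 for ETV5 and -0.025 to 0.19 for FOSL1. For the interaction they were -0.29 to 0.73 for DUSP4, -0.29 to 0.59 for ETV4 and -0.32 to 0.19 for SPRED1. None of these differences was called in the full fit. Where calls changed with spike-in centring or without the block, the cause was not tested. Technical triplicates of 1 population each, a depth that is unknown per library and a scale with a floor limit what can be resolved.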

Other observations

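Among the 10 genes, the libraries of SPRY2 and FOSL1 ran most clearly against each other, with a Pearson correlation of -0.83 over the 12 libraries. DUSP6 and ETV4 (0.68) and SPRY4 and ETV5 (0.66) ran most alike. These values are descriptions over libraries that share populations, 3 to a group, and the same batch removal.

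The genes whose library values most resembled those of each gene were searched among 5658 or 5659 genes with a mean log2 level of at least 7. For SPRY2 they were PPM1B (0.95), DCAF7 (0.95) and ROCK1 (0.94). FOSL1 resembled COPS8 (0.96), PRNP (0.94) and AASDHPPT (0.93). ETV5 resembled ACTL6A (0.94), THBS1 (0.93) and SERP1 (0.92). DUSP5 resembled FMNL2 (0.98), EFNA5 (0.93) and EIF2A (0.93). DUSP6 resembled MIEF1 (0.92), RHOC (0.92) and NAXE (0.89), and DUSP4 resembled ANGEL2 (0.89), DNAJA2 (0.87) and PPIG (0.85). SPRY4 resembled C19orf53 (0.90), OGT (0.89) and SEC22B (0.88). SPRED1 resembled BLOC1S6 (0.92), ESD (0.89) and GORASP2 (0.87), SPRED2 resembled PPA1 (0.92), DDX27 (0.92) and BZW2 (0.91), and ETV4 resembled MFAP1 (0.90), SNAP29 (0.86) and ENSA (0.86).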
